A study of Mus musculus with 8 samples.

Results

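Genes of G1/S entry and DNA replication were examined in bulk RNA sequencing of mouse sarcoma cells. They are 42 named genes, chosen by function with earlier results of these data known, of the 35498 genes whose transcripts were quantified. By role, 10 belong to the replicative helicase, 5 to origin licensing, 13 to the replication fork, 5 to nucleotide supply, 7 to G1/S control and 2 to maintenance methylation. The data were 8 libraries, 2 in each of 4 groups. All 4 groups came from mesenchymal stem cells of C57BL/6 background, transformed by p53 knockout and Ccne1 overexpression (p53-/- Ccne1+), passed through a first tumour and then transduced. The sgMif group (labelled Mif-knockout) carried Cas9 and a guide RNA against Mif, and its control, sgSCR (Mif-wildtype), carried Cas9 and a control guide. The shMif group (labelled Mif-knockdown) carried a short hairpin RNA against Mif, and its control, shSCR (Mif-wildtype), a control hairpin. The series' design text lists Cas9 for the hairpin cells as well, whereas the growth protocol lists it for the guide cells only. Tumours grew under the skin of secondary recipient mice on polyurethane scaffolds, and RNA came from tumour cells sorted on a fluorescent marker. The study asked how Mif made by tumour cells, which encodes the cytokine macrophage migration inhibitory factor, affects pathways inside those cells. Whether 2 libraries of a group stem from separate mice or clones is not stated in the labels, and p-values then cover only library-to-library spread, which may be technical. The age of the mice is not stated either.

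Before S phase, the origin recognition complex, Cdc6 and Cdt1 load the ring of Mcm2 to Mcm7 onto origins, and geminin (Gmnn) holds Cdt1 in check once replication has begun. Cyclin-dependent kinases then join Cdc45 and GINS to the ring, which becomes the helicase that opens DNA ahead of the polymerases. Much of this gene set is transcribed in a burst at the G1/S boundary by E2F factors, which the retinoblastoma proteins hold back until D-type and E-type cyclins with Cdk4 and Cdk2 release them. The transforming gene of these cells, Ccne1, encodes cyclin E1, a partner of Cdk2 at this boundary. In bulk RNA, a larger share of cells in S phase and more RNA per cell cannot be told apart.

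Libraries held 19042235 to 51819308 estimated reads, and 3 of them (sgMif library 2, shMif library 2 and shSCR library 2) stood apart with under 1000 counts-per-million units (CPM) over 1406 olfactory receptor genes, against 1328.7 to 2541.2 CPM in the other 5. The label of sorted sarcoma cells was checked against 10 mesenchymal markers, all detected, whose summed level was 34453 and 35291 CPM in sgMif, 29137 and 30303 CPM in sgSCR, 27359 and 37711 CPM in shMif, and 17241 and 23898 CPM in shSCR. Col1a1, Col1a2, Col3a1 and Vim made up most of each sum, whereas Thy1 was at 2.7 to 24.3 CPM and Eng at 2.1 to 17.8 CPM. The markers did not move together. The 3 collagens were lowest in shSCR, but Nt5e (222 and 227 CPM) and S100a4 (1196 and 1257 CPM) were highest there. All 14 macrophage markers passed the filter on low counts, with summed levels of 161 and 128 CPM in sgMif, 487 and 237 CPM in sgSCR, 505 and 259.7 CPM in shMif, and 293 and 323 CPM in shSCR. The 6 endothelial markers summed to 164 and 36 CPM in sgMif, 264 and 276 CPM in sgSCR, 167 and 54.6 CPM in shMif, and 207 and 38.3 CPM in shSCR. Most of that sum was Pecam1: the other 5 summed to 53 and 11 CPM in sgMif, 18.1 and 15.3 CPM in sgSCR, 13.6 and 17.6 CPM in shMif, and 12 and 17.5 CPM in shSCR. Marker sums of B cells, T and NK cells, neutrophils and epithelium were 1.6 to 59.4 CPM, and Ly6g was at 0 in all 8 libraries. The part of these other cells in the results was not tested. Mif itself was at 221 and 222 CPM in sgMif, against 377 and 455 CPM in sgSCR, a log2 difference of -0.91 that did not pass (adjusted p = 0.215, edgeR). In the libraries labelled shMif it was at 277 and 222 CPM, against 170.2 and 375 CPM in shSCR, with a log2 difference of -0.13 (adjusted p = 0.925, edgeR), so transcript levels do not separate the libraries labelled shMif from their controls.

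All 42 genes passed the filter on low counts. Across the 8 libraries the genes of highest level per transcript length were Cdk4, the kinase partner of D-type cyclins, at 399.7 to 502 transcripts-per-million units (TPM), followed by Pcna, the sliding clamp, at 148 to 249 TPM and Ccnd1, cyclin D1, at 85 to 185 TPM. Mcm6 ranked 4 in mean TPM, and E2f2, a transcriptional activator of the E2F family, ranked 42 at 0.679 to 4.64 TPM. Within groups, the normalised level of a gene differed between its 2 libraries by a median of 1.07-fold in sgMif, 1.14-fold in sgSCR, 1.16-fold in shMif and 1.14-fold in shSCR. Genes more than 1.5-fold apart within a group were Tyms in sgMif and shMif, Rrm1 and E2f2 in sgSCR, and Cdt1, Pold1 and Tyms in shSCR. The largest such gap was 2.61-fold, for E2f2 in sgSCR.

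The replication genes stood highest in the sgMif tumour cells. Their median log2 fold change against sgSCR was 0.60, beside -0.01 over all 16309 genes tested, and 40 of the 42 had a positive value, beside 49.4% of all genes. Mcm6, Mcm4 and Mcm3 of the helicase ring, Uhrf1 of maintenance methylation and Rrm2 of ribonucleotide reductase rose, and no gene of the set fell (edgeR's quasi-likelihood test with Benjamini-Hochberg adjustment over all genes tested). These 5 calls stand beside 0.368% of all genes called higher, 0.619% called lower and 0.987% called in either direction. At an unadjusted p under 0.05, 32 genes were higher and 1 lower in sgMif, beside 9.09% and 7.51% of all genes. DESeq2 called 19 higher and 1 lower, beside 2.96% and 3.11% of all genes. In 40 genes both sgMif libraries lay above both sgSCR libraries, beside 27.1% of all genes, and in 1 both lay below, beside 24.2%. In 36 genes both sgMif libraries lay above all 6 other libraries, beside 9.54% of all genes; the other 6 were Gmnn, Rfc3, Tyms, Ccne2, Ccnd2 and Dnmt1. The calls rest on few libraries: none of the 5 passed without sgMif library 1, sgMif library 2, sgSCR library 1, sgSCR library 2 or shMif library 2, Mcm6 alone passed without shMif library 1, beside 0.092% of all genes called higher in that fit, and 8 genes passed without either shSCR library, beside 1.05% without library 1 and 0.93% without library 2. None passed with counts scaled by transcript length, and 1 passed with a term for the 3 libraries that stand apart (0.0552% of all genes called higher), whereas the fold changes of the 5 kept their sign under all 17 alternatives.

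**Figure D1:**
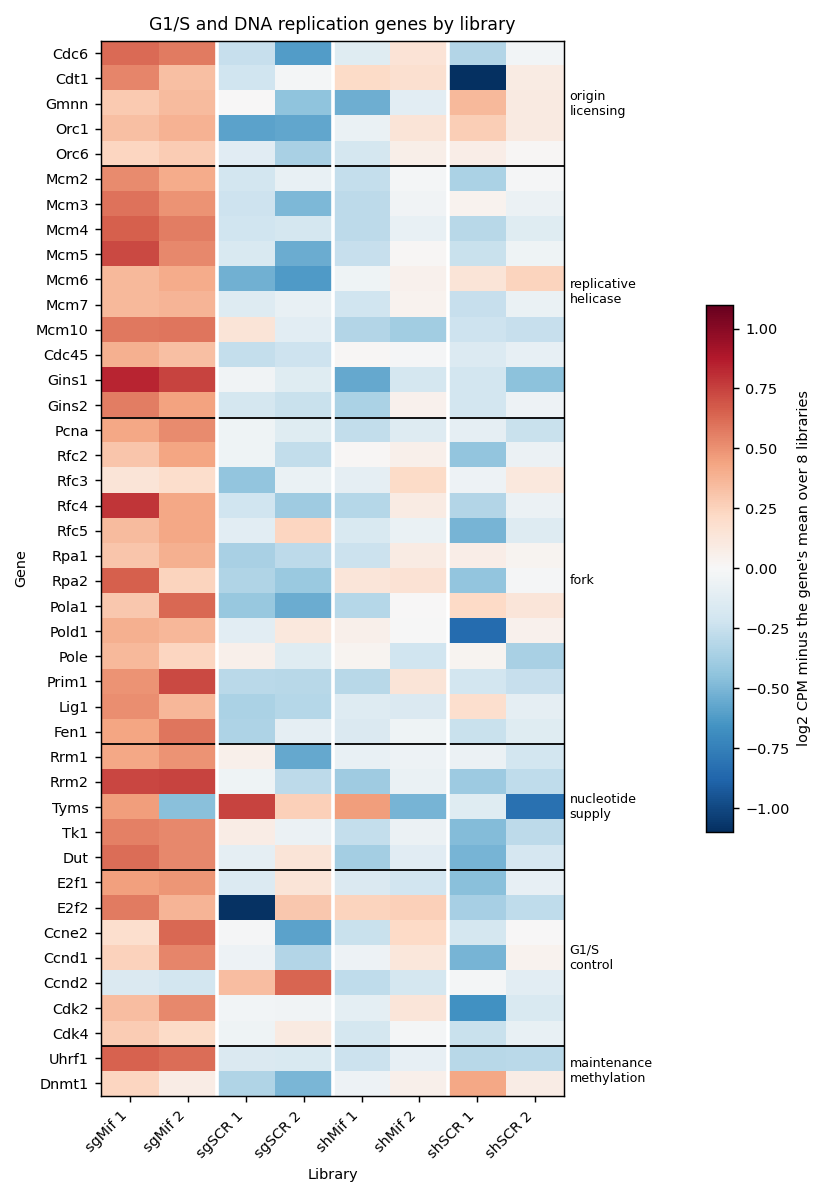
Normalised level of the 42 genes in each of the 8 libraries, as the log2 difference from the gene's mean over all libraries. Rows are genes grouped by role and columns are libraries, with sgMif at the left; the median difference was 0.43 in each sgMif library and between -0.24 and -0.01 in the other 6.

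Normalised by library, the profile of the whole set was alike in both sgMif libraries. Relative to each gene's mean over the 8 libraries, sgMif library 1 was above the mean for 41 genes and sgMif library 2 for 40, whereas the other libraries were above it for 7 to 20. The highest of the 8 values fell in sgMif library 1 for 19 genes and in sgMif library 2 for 18, and neither held the lowest value of any gene. The lowest value fell in shSCR library 1 for 16 genes and in sgSCR library 2 for 11. These counts by library were not taken over all genes, so no background stands beside them. The shSCR libraries also differed most from each other over all genes tested (chi-square per degree of freedom 120).

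The helicase genes had the highest median of the larger roles. All 10 had positive log2 fold changes in sgMif against sgSCR, with a median of 0.77 and a range of 0.48 to 0.97, and 3 rose. Mcm6, one of the ring subunits, was at 252 and 260.2 CPM in sgMif, against 136 and 127 CPM in sgSCR. It was at 190.1 and 202 CPM in the libraries labelled shMif, against 216 and 232 CPM in shSCR. The sgMif pair was highest and the sgSCR pair lowest, with both hairpin groups between them and the libraries labelled shMif below shSCR. The log2 fold change of Mcm6 in sgMif against sgSCR was 0.96 ± 0.12 (SE, adjusted p = 0.0288, edgeR), and over the 17 alternatives it was 0.92 to 1.00 with adjusted p from 2.64e-09 to 0.157.

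Mcm4, another subunit of the ring, was at 157 and 147 CPM in sgMif, against 85.3 and 86.7 CPM in sgSCR. It was at 81.2 and 94.1 CPM in the libraries labelled shMif, against 80.6 and 90.4 CPM in shSCR. Only the sgMif pair stood apart for this gene, and the other 6 libraries overlapped. The log2 fold change of Mcm4 in sgMif against sgSCR was 0.82 ± 0.14 (SE, adjusted p = 0.0404, edgeR), with adjusted p from 3.76e-05 to 0.204 over the 17 alternatives. Mcm3 was at 146 and 137 CPM in sgMif, against 82.6 and 68.7 CPM in sgSCR. It was at 79.2 and 94.2 CPM in the libraries labelled shMif, against 99.3 and 92.8 CPM in shSCR. The sgMif pair was again above all others, and the hairpin groups overlapped. Mcm3 had a log2 fold change of 0.90 ± 0.15 in sgMif against sgSCR (SE, adjusted p = 0.0413, edgeR), with adjusted p from 3.63e-05 to 0.228 over the 17 alternatives.

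The other helicase genes did not pass. Mcm5, a ring subunit, had the highest log2 fold change of the helicase genes, 0.97 ± 0.18 (adjusted p = 0.0518, edgeR), and Mcm7 the lowest, 0.48 ± 0.14 (adjusted p = 0.147). Cdc45, which joins the ring to make the active helicase, had 0.61 ± 0.14 (adjusted p = 0.0878, edgeR). The GINS subunits Gins1 and Gins2 had 0.88 and 0.72, Mcm2 had 0.60, and Mcm10, which helps the assembled helicase to start, had 0.57. All of these had both sgMif libraries above the other 6.

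Because the ring holds its 6 subunits in equal number, their levels were also set side by side per transcript length. Mcm2 to Mcm7 together were at 581 and 514 TPM in sgMif, against 320.3 and 318 TPM in sgSCR. They were at 338 and 370.1 TPM in the libraries labelled shMif, against 356 and 395 TPM in shSCR. The sgMif sums lay above all 6 others. Mcm4 was the subunit of lowest TPM in 7 libraries and Mcm3 in sgSCR library 2, and the subunit of highest TPM exceeded the lowest by 1.98-fold to 3.16-fold. The share of Mcm6 in the sum was 20.1% and 22.3% in sgMif, against 21% and 18.3% in sgSCR. It was 26.2% and 23.3% in the libraries labelled shMif, against 24.8% and 25.2% in shSCR, so that the 4 hairpin libraries lay above the 4 guide libraries. These shares were not tested.

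**Figure D2:**
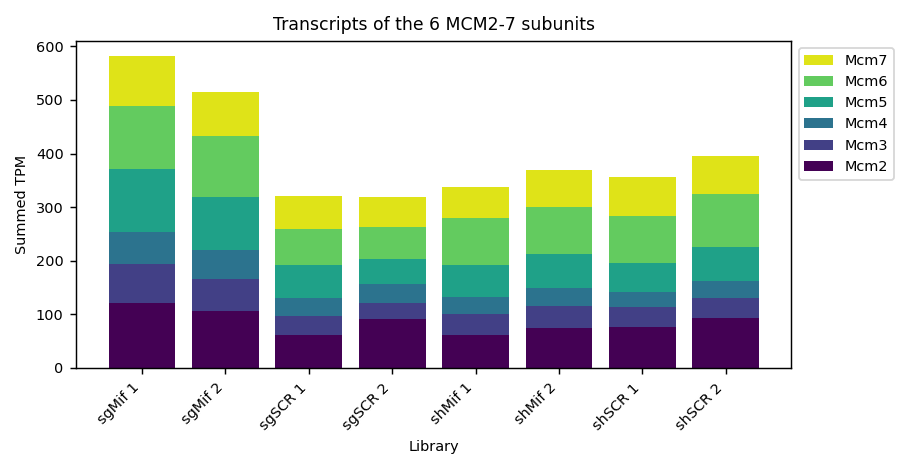
Level of Mcm2 to Mcm7 in each library in TPM, stacked by subunit. The sgMif bars reach 581 and 514 TPM and the other 6 lie between 318 and 395 TPM.

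Origin licensing genes were positive in sgMif against sgSCR in 5 of 5 cases, with a median of 0.56, and none passed. Cdc6, which loads the ring with Cdt1, was at 21.1 and 20.4 CPM in sgMif, against 11.5 and 8.92 CPM in sgSCR. It was at 12.5 and 15.1 CPM in the libraries labelled shMif, against 10.9 and 13.4 CPM in shSCR. Its log2 fold change in sgMif against sgSCR, 1.02 ± 0.22 (SE, adjusted p = 0.0773, edgeR), was the highest of the 42. Orc1, the largest subunit of the origin recognition complex, was at 8.4 and 8.68 CPM in sgMif, against 4.43 and 4.49 CPM in sgSCR. It was at 6.33 and 7.34 CPM in the libraries labelled shMif, against 8.04 and 7.14 CPM in shSCR. Both sgMif libraries were highest and both sgSCR libraries lowest, and the log2 fold change of sgMif against sgSCR was 0.94 ± 0.25 (adjusted p = 0.121, edgeR). It was 0.07 at the lowest over the 17 alternatives, and the TPM of Orc1 was 34.6 and 6.55 in sgMif, against 2.04 and 37.5 in sgSCR, so levels per length did not separate these groups.

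Cdt1 and its inhibitor Gmnn, named after their values were seen, were each at an extreme of the 8 libraries in shSCR library 1. Cdt1 was at 55.5 and 48.3 CPM in sgMif, against 32.9 and 37.8 CPM in sgSCR. It was at 44.4 and 43.3 CPM in the libraries labelled shMif, against 17.7 and 40.9 CPM in shSCR, where library 1 was the lowest of the 8. Gmnn was at 12.6 and 13.1 CPM in sgMif, against 10.3 and 7.58 CPM in sgSCR. It was at 7.1 and 9.53 CPM in the libraries labelled shMif, against 13.2 and 11 CPM in shSCR, and shSCR library 1 was the highest of the 8. The ratio of Cdt1 to Gmnn in TPM was 1.17 and 1.03 in sgMif, against 0.894 and 1.4 in sgSCR, so the groups overlapped. It was 1.7 and 1.26 in the libraries labelled shMif, against 0.484 and 1.01 in shSCR. Orc6, the smallest subunit of the origin recognition complex, had a log2 fold change of 0.49 ± 0.16 in sgMif against sgSCR (adjusted p = 0.172, edgeR).

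At the fork, all 13 genes were positive in sgMif against sgSCR, with a median of 0.67 and a range of 0.32 to 0.95, and none passed. Pola1, the catalytic subunit of the polymerase that extends primers, was at 70.7 and 89 CPM in sgMif, against 43.1 and 39.5 CPM in sgSCR. It was at 46.3 and 57.7 CPM in the libraries labelled shMif, against 66.9 and 63 CPM in shSCR. In sgMif against sgSCR its log2 fold change was 0.95 ± 0.17 (SE, adjusted p = 0.0517, edgeR). Lig1, which seals the fragments of the lagging strand, was at 137 and 124 CPM in sgMif, against 75.7 and 77.5 CPM in sgSCR. It was at 87.4 and 85.9 CPM in the libraries labelled shMif, against 109 and 89.6 CPM in shSCR. For Lig1 the log2 fold change in sgMif against sgSCR was 0.77 ± 0.14 (adjusted p = 0.0549, edgeR). For both genes, in CPM, sgSCR was the lowest pair, sgMif the highest, and the libraries labelled shMif lay below shSCR. In TPM this order did not hold. Lig1 was highest in shSCR library 1, at 70.4 TPM, against 60.1 and 50.6 TPM in sgMif. Pola1 was at 16 and 14.6 TPM in sgSCR, which overlapped 13.9 and 16.1 TPM in the libraries labelled shMif.

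Prim1, the primase that makes the primers, had a log2 fold change of 0.92 ± 0.21 in sgMif against sgSCR (adjusted p = 0.0878, edgeR). Fen1, the flap nuclease of lagging-strand maturation, had 0.73 and Pcna 0.56. Rpa1 and Rpa2, which coat single-stranded DNA, had 0.67 and 0.84. The clamp loader subunits Rfc2, Rfc3, Rfc4 and Rfc5 had 0.52, 0.42, 0.92 and 0.32. The catalytic subunits of the lagging-strand and leading-strand polymerases, Pold1 and Pole, had 0.37 and 0.33, the lower end of the fork genes together with Rfc5. With counts scaled by transcript length, the value of Rfc5 was -0.42 and that of Pole -0.14.

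Reads of some fork genes fell on transcripts that do not code for protein. In 23 of the 42 genes over 90% of reads were on protein-coding transcripts in every library, and in 19 they were not. Rfc2 was the extreme, with 20.2 to 28.4% on its coding transcript. For Pole the coding share was 80.5% and 92.8% in sgMif, against 49.9% and 62.4% in sgSCR, and its retained-intron transcript Pole-204 took 19.3% and 6.84% of the gene's reads in sgMif, against 50.1% and 37.6% in sgSCR. In the hairpin groups the coding share of Pole was 40.7% and 79.5% in the libraries labelled shMif, against 41.8% and 76.9% in shSCR, so it differed within both hairpin groups. Over protein-coding transcripts only, the log2 fold change of Pole in sgMif against sgSCR was 0.93, and it did not pass. Retained-intron transcripts of all genes took 3.95% and 3.95% of reads in sgMif, against 4.84% and 4.42% in sgSCR. The coding share of Rrm1 was also higher in sgMif, at 83.5% and 90.3%, against 70.5% and 75.9% in sgSCR. That of Pcna was lower, at 82.1% and 83.6% against 88.6% and 88.2%. These shares were not tested.

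**Figure D3:**
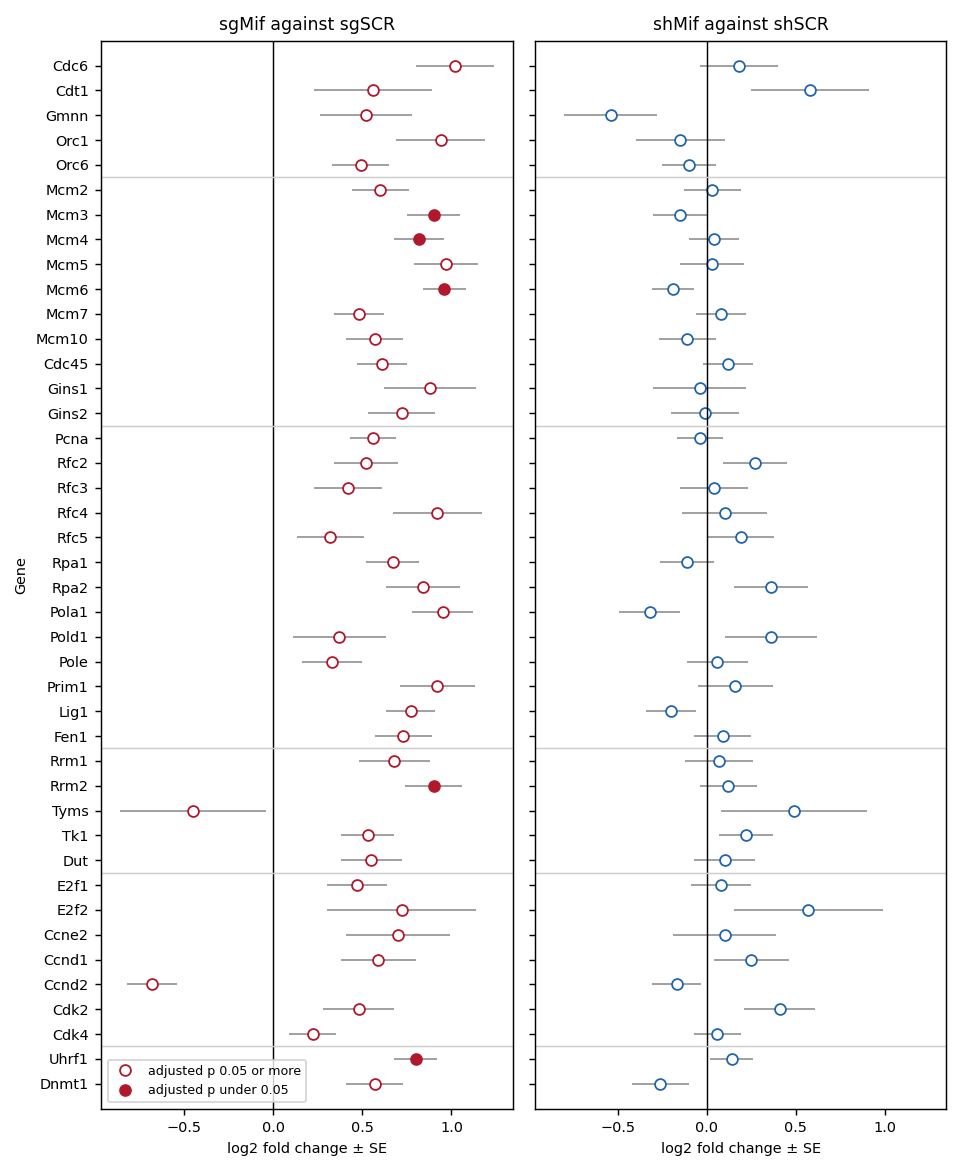
Log2 fold change of the 42 genes, grouped by role, in sgMif against sgSCR and in the libraries labelled shMif against shSCR, with bars of 1 SE; filled points passed the test. The first comparison has 40 positive values and a median of 0.60, and the second 28 positive values and a median of 0.07.

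Of the 5 nucleotide supply genes, 4 were positive in sgMif against sgSCR, 1 rose, and the median was 0.55. Rrm2, the regulated subunit of ribonucleotide reductase, which makes deoxyribonucleotides, was at 111 and 111 CPM in sgMif, against 64.2 and 54.4 CPM in sgSCR. It was at 50.7 and 63.1 CPM in the libraries labelled shMif, against 50.4 and 54.6 CPM in shSCR. Only the sgMif libraries stood apart, and the log2 fold change of sgMif against sgSCR was 0.90 ± 0.16 (SE, adjusted p = 0.0476, edgeR; 6.47e-05 to 0.228 over the 17 alternatives). Rrm1, the large subunit, had 0.68 ± 0.20 (adjusted p = 0.14, edgeR) and Dut, which removes dUTP, 0.55 ± 0.17 (adjusted p = 0.167). Tk1, the thymidine kinase of the salvage route, was at 48.9 and 48 CPM in sgMif, against 35.3 and 31.9 CPM in sgSCR. It was at 27.7 and 31.9 CPM in the libraries labelled shMif, against 23.9 and 27.3 CPM in shSCR. The sgMif pair was the highest of the 4 groups, and the log2 fold change against sgSCR was 0.53 ± 0.15 (adjusted p = 0.139, edgeR).

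Tyms, thymidylate synthase of the de novo route to dTTP, is named after its values were seen. It was at 88.3 and 46.6 CPM in sgMif, against 107 and 76.6 CPM in sgSCR. It was at 88 and 44.9 CPM in the libraries labelled shMif, against 58.4 and 36.1 CPM in shSCR. In CPM, its level separated the libraries by olfactory receptor level and not by group. The 5 libraries above 1000 olfactory receptor CPM held 58.4 to 107 CPM of Tyms, and the other 3 held 36.1 to 46.6 CPM. In TPM the classes overlapped, with 33.7 to 47.7 TPM in those 5 and 32.6 to 58.8 TPM in the other 3. Of the 42 genes, Tyms alone had all 5 above the other 3 in CPM, beside 6.47% of all genes, so this count does not stand above the background. For 0 genes all 5 lay below, beside 2.5%. The coding share of its reads was 92.2% and 64.5% in sgMif, 98.2% and 91.3% in sgSCR, 97.2% and 73.8% in shMif, and 88.5% and 76.9% in shSCR. The log2 fold change of Tyms in sgMif against sgSCR was -0.45 ± 0.41 (SE, adjusted p = 0.612, edgeR), and it was 0.22 with counts scaled by transcript length and -0.06 over the 5 libraries above 1000 olfactory receptor CPM.

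Among the 7 genes of G1/S control, 6 were positive in sgMif against sgSCR, none passed, and the median was 0.48. Ccnd1 was at 455 and 554 CPM in sgMif, against 367 and 305 CPM in sgSCR. It was at 367 and 416 CPM in the libraries labelled shMif, against 267 and 392 CPM in shSCR. The sgMif libraries were the highest pair, and the log2 fold change against sgSCR was 0.59 ± 0.21 (SE, adjusted p = 0.215, edgeR). Ccnd2, cyclin D2, was at 111 and 108 CPM in sgMif, against 157 and 194 CPM in sgSCR. It was at 102 and 108 CPM in the libraries labelled shMif, against 123 and 114 CPM in shSCR. Here sgSCR was the group that stood apart, above all 6 other libraries. Its log2 fold change in sgMif against sgSCR, -0.68 ± 0.14 (adjusted p = 0.0715, edgeR), was the lowest of the 42, and DESeq2 called it lower. The ratio of Ccnd1 to Ccnd2 in TPM was 4.06 and 6.9 in sgMif, against 2.72 and 2.23 in sgSCR. It was 4.15 and 4.35 in the libraries labelled shMif, against 2.91 and 2.83 in shSCR. In both systems the Mif-targeted pair thus lay above its control pair. This ratio was among several computed, was not tested, and has no share over all genes beside it. The ratio of Rrm1 to Rrm2 overlapped in both systems. In the hairpin groups Ccnd1 separated, at 131 and 134 TPM in the libraries labelled shMif, against 85 and 126 TPM in shSCR. Ccnd2 overlapped there, at 31.5 and 30.7 TPM against 29.2 and 44.5 TPM.

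E2f1, the best-known activator of the E2F family, had a log2 fold change of 0.47 ± 0.17 in sgMif against sgSCR (adjusted p = 0.22, edgeR). E2f2 had 0.72 ± 0.42, with 2.87 and 7.48 CPM in the sgSCR libraries against which it was set. Ccne2, cyclin E2, had 0.70, and the kinases Cdk2 and Cdk4 had 0.48 and 0.22. Cdk4, the gene of highest TPM, thus had the smallest positive value of the set.

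Both genes of maintenance methylation were positive in sgMif against sgSCR. Uhrf1, which recognises hemimethylated DNA behind the fork and recruits Dnmt1, was at 199 and 195 CPM in sgMif, against 114 and 113 CPM in sgSCR. It was at 108 and 119 CPM in the libraries labelled shMif, against 103 and 104 CPM in shSCR. The sgMif pair stood apart and the other 6 lay close together. For Uhrf1 the log2 fold change in sgMif against sgSCR was 0.80 ± 0.12 (SE, adjusted p = 0.0333, edgeR; 3.04e-06 to 0.191 over the 17 alternatives). Dnmt1, which copies methylation to the new strand, was at 220.2 and 198 CPM in sgMif, against 149 and 132 CPM in sgSCR. It was at 181 and 195 CPM in the libraries labelled shMif, against 252 and 198 CPM in shSCR. Unlike Uhrf1, its highest value was in shSCR library 1, and its log2 fold change in sgMif against sgSCR was 0.57 ± 0.16 (adjusted p = 0.127, edgeR).

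**Figure D4:**
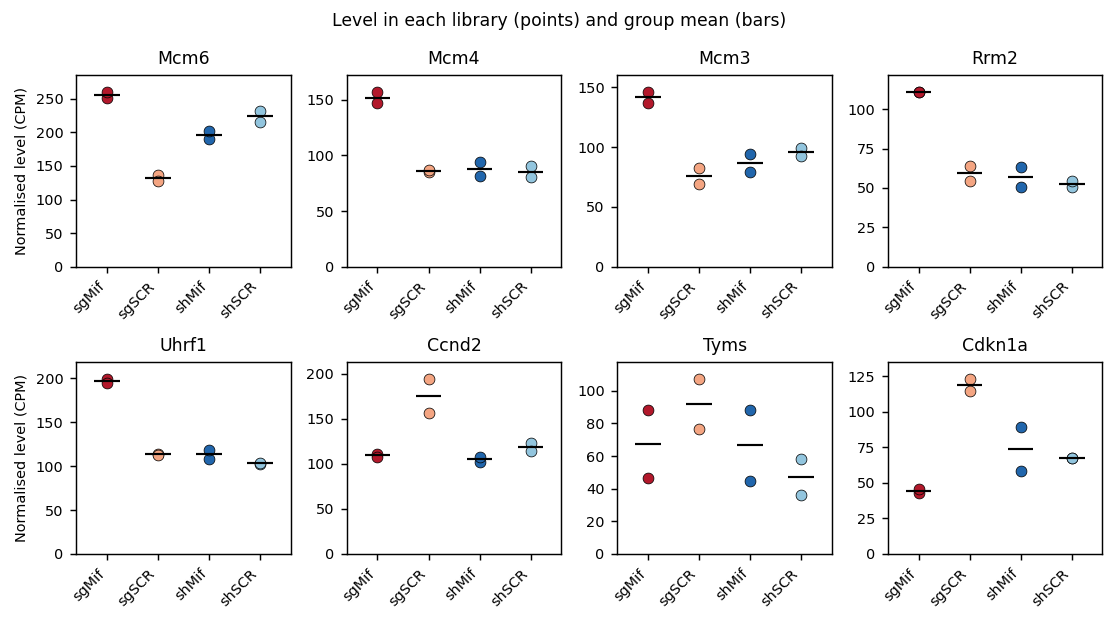
Normalised level (CPM) of selected genes in each library, with groups along the horizontal axis and a bar at each group mean of 2 libraries. Mcm6, Mcm4, Mcm3, Rrm2 and Uhrf1 have their highest pair in sgMif, Ccnd2 and Cdkn1a (the inhibitor p21, at 43 and 45.5 CPM in sgMif, against 123 and 115 CPM in sgSCR) their highest pair in sgSCR, and Tyms overlaps between groups.

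The promoters of the genes that rose are shown because E2F sites are the textbook control element of this set. They run from 250 bases before to 50 after the RefSeq start (GRCm38.p6), printed on the gene's strand, and capitals mark the letters of an E2F core on either strand (TTCCCGC or its variant TTCGCGC, and likewise TTGCCGC or its variant TTGGCGC), with overlapping matches run together. Mcm4 is named only. Mcm6, on the minus strand of chromosome 1 (gene at 128331590 to 128359664), holds 5 matches. Uhrf1, on the plus strand of chromosome 17 (gene at 56303321 to 56323486), holds 1 in the window shown and 1 in a second RefSeq window, chr17:56304063-56304362, that is not printed. Mcm3, on the minus strand of chromosome 1 (gene at 20802968 to 20820312), holds 3, all after the start, and Rrm2, on the plus strand of chromosome 12 (gene at 24708241 to 24714146), holds 1.
Mcm6, chr1:128359656-128359955: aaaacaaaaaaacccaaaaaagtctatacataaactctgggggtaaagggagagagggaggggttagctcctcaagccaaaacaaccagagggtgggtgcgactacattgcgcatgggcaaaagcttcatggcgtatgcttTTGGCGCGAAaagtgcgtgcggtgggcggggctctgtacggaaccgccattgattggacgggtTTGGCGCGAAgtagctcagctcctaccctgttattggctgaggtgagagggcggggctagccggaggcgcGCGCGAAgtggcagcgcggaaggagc
Uhrf1, chr17:56303087-56303386: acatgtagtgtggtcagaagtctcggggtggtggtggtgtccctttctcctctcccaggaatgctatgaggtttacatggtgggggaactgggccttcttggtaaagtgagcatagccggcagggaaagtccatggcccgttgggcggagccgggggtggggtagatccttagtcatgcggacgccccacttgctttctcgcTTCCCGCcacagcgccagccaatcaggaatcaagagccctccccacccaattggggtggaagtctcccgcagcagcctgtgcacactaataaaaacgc
Mcm3, chr1:20820263-20820562: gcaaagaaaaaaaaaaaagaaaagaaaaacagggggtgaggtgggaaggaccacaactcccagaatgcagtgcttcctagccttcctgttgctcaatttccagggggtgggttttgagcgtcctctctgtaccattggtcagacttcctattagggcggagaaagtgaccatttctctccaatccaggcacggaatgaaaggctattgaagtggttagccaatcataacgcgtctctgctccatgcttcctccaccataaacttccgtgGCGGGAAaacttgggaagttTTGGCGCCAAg
Rrm2, chr12:24708004-24708303: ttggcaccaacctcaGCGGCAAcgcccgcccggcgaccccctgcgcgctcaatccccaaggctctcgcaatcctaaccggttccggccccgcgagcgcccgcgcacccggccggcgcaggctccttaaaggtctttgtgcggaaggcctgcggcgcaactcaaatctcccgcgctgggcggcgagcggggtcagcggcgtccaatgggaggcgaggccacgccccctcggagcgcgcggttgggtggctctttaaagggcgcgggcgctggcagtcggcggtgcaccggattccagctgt

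A RefSeq promoter was matched for 33 of the 42 genes, in 41 windows. An E2F core was present in 21 of the 33, or 63.6%, and in 58.5% of their windows, beside 9.57% of all 32851 windows and 12.1% of the 21263 windows of protein-coding genes. With only the 250 bases before the start, 45.5% of the genes and 41.5% of their windows held one, beside 7.89% of all windows. A CCAAT box (CCAAT) was in 61% of the windows, beside 37.4% of all and 38.2% of those of protein-coding genes. A GC box (GGGCGG) was in 68.3%, beside 35.7% and 46.2%. The CHR element of mitotic genes (TTTGAA) was in 12.2%, beside 17.9% and 16%. Each was searched on both strands; the GC box and an E2F core can share letters. The 21 genes with an E2F core had a median log2 fold change of 0.80 in sgMif against sgSCR and the 12 without one 0.54, given as a description. This split was not tested. Genes without a matched promoter are left out of it, among them Ccnd2 (-0.68) and Gins1 (0.88). For E2f1 and Dut, both without a core, the window lies wholly inside the annotated gene, so the gene's own start was not searched. The same holds for Cdc6 and Mcm7, which have a core. A match of letters does not show that a factor binds there.

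In the libraries labelled shMif against shSCR, the replication genes lay near their control level. The median log2 fold change was 0.07, beside 0.03 over all genes, with 28 positive values, beside 53% of all genes, and 14 negative ones. No gene of the set passed (edgeR), beside 0.0184% of all genes called. At an unadjusted p under 0.05 none was counted, beside 9.26% of all genes, and DESeq2 called none, beside 1.12%. Both libraries labelled shMif lay above both shSCR libraries for 8 genes, beside 19.4% of all genes, and below them for 7, beside 22.3%. The medians were 0.01 for the helicase, -0.10 for licensing, 0.09 for the fork, 0.12 for nucleotide supply and 0.10 for G1/S control. The extremes were Cdt1 at 0.58 ± 0.33 (adjusted p = 0.612, edgeR), where the low value of shSCR library 1 enters, and Gmnn at -0.54 ± 0.26 (adjusted p = 0.567). Without shSCR library 2, 2 genes passed, Cdt1 and Pold1, whose levels in shSCR library 1 were the lowest of the 8 libraries; that fit called 3.24% of all genes higher, so 2 of 42 is near the background. That library also set the remaining shSCR level alone in that fit.

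The difference between the effects in both systems was tested directly. Its median over the 42 genes was 0.60, beside -0.04 over all genes, and 39 of the 42 were positive, beside 47.6% of all genes. No gene of the set passed (edgeR), beside 0.092% of all genes called, 0.00613% higher and 0.0858% lower. At an unadjusted p under 0.05, 23 were higher and 1 lower, beside 8.93% and 6.83% of all genes. DESeq2 called 9 higher and 0 lower, beside 1.66% and 2.35%. Mcm6 had the lowest adjusted p, 0.0734, with a difference of 1.15 ± 0.17 on the log2 scale. An effect of sgMif that differs from that of shMif was therefore not shown for any single gene of the set with this test, and without shSCR library 2 it passed for 5, all higher, beside 0.976% of all genes called higher in that fit. In that fit shSCR library 1 set the shSCR level alone, and with any other library left out no gene of the set passed. Of those 5, Dnmt1, Lig1, Mcm3 and Pola1 were higher in CPM in shSCR library 1 than in library 2, and Mcm6 was lower. In 6 genes both sgMif libraries lay above sgSCR in CPM while both libraries labelled shMif lay below shSCR, beside 7.98% of all genes. Both sgMif libraries lay above sgSCR for 40 of the 42, and both libraries labelled shMif below shSCR for 7, beside 22.3% of all genes. With those counts, 6 genes with both patterns are not an excess of opposite effects.

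The control groups were set against each other to see how the vector systems differ without a Mif-directed construct; shSCR against sgSCR shares its libraries with both comparisons above. The median log2 fold change of the 42 genes was -0.02, beside -0.04 over all genes, with 20 positive values, beside 47.5% of all genes, and 22 negative ones. Both shSCR libraries lay above both sgSCR libraries for 12 genes, beside 28.4% of all genes, and below them for 10, beside 26.3%. Mcm6 was 0.77 ± 0.12 higher on the log2 scale (SE, adjusted p = 0.0206, edgeR) and was the 1 gene called, beside 2.23% of all genes called higher; no gene was called lower, beside 1.79%, and 4.02% of all genes were called in either direction. Without sgSCR library 1, and without sgSCR library 2, Mcm6 did not pass. At an unadjusted p under 0.05, 6 genes were higher and 3 lower in shSCR, beside 22.9% of all genes in either direction. DESeq2 called 3 higher and 1 lower, beside 11.9% in either direction, so neither count stands above the background. Dnmt1 (0.68, adjusted p = 0.0554), Pola1 (0.65, adjusted p = 0.0748) and Ccnd2 (-0.57, adjusted p = 0.067) came next in edgeR. The level of Mcm6 in sgSCR, 132 ± 6.31 CPM (SD, n = 2), was thus below that of shSCR, 224 ± 11.3 CPM, and that of sgMif was 256 ± 5.96 CPM.

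Another 75 genes of the same pathway, of which 74 passed the filter on low counts, were read alongside. In sgMif against sgSCR their median log2 fold change was 0.44, beside -0.01 over all genes. Of the 74 values, 62 were positive, beside 49.4% of all genes, and 12 were negative. In this comparison 3 rose, beside 0.368% of all genes, and 1 fell, beside 0.619%. Rbl1, the retinoblastoma relative p107, was at 49.7 and 53.6 CPM in sgMif, against 22.4 and 27.1 CPM in sgSCR, with a log2 fold change of 1.06 (adjusted p = 0.0333, edgeR). Chaf1a, the large subunit of the chromatin assembly factor at the fork, was at 105 and 103 CPM in sgMif, against 54.8 and 57 CPM in sgSCR, with 0.89 (adjusted p = 0.0362, edgeR). Both stood highest in sgMif. Cdkn1a, the inhibitor p21 of cyclin-dependent kinases and a known target of p53, fell: it was at 43 and 45.5 CPM in sgMif, against 123 and 115 CPM in sgSCR. It was at 89.1 and 58.7 CPM in the libraries labelled shMif, against 67.5 and 67.6 CPM in shSCR. Its log2 fold change in sgMif against sgSCR was -1.42 ± 0.20 (adjusted p = 0.033, edgeR), and sgSCR held the highest pair and sgMif the lowest. None of the 4 passed without any 1 of the sgMif or sgSCR libraries.

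Ccne1, whose overexpression defines the cells, was at 20.6 and 15.8 CPM in sgMif, against 19.6 and 15.9 CPM in sgSCR, and at 9.73 and 11.2 CPM in the libraries labelled shMif, against 8.66 and 11.3 CPM in shSCR. Its log2 fold change in sgMif against sgSCR was 0.04 (adjusted p = 0.963, edgeR). Both guide groups lay above both hairpin groups, a pattern that was not counted over all genes. Whether these reads include those of the introduced Ccne1 is not visible in the values. In the libraries labelled shMif against shSCR no gene of the 74 passed, beside 0.0184% of all genes, and DESeq2 called none, beside 1.12%. At an unadjusted p under 0.05, 3 were counted, beside 9.26% of all genes. In shSCR against sgSCR 1 rose, Orc2 of the origin recognition complex (0.91, adjusted p = 0.0186, edgeR). With 2.23% of all genes called higher there, this count does not stand above the background. Of 20 genes of mitosis read alongside, 4 rose in sgMif against sgSCR, beside 0.368% of all genes. Their median log2 fold change was 0.83. All 20 had both sgMif libraries above both sgSCR libraries, beside 27.1% of all genes. Their summed level was 2653 and 3041 CPM in sgMif, against 1665 and 1352 CPM in sgSCR, and 1411 and 1682 CPM in the libraries labelled shMif, against 1619 and 1393 CPM in shSCR.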

How the data were processed

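Bulk RNA sequencing tables of 8 libraries in 4 groups were used. Per the submitters' processing notes, the authors used Trimmomatic and Salmon with build mm10; tool versions and the library kit are not stated there or in the labels. Each of the deposited tables holds an estimated count of reads and a TPM value, relative to effective transcript length, for each of 116546 transcripts, per the file headers. Transcripts were joined to genes by the GENCODE M21 annotation of mm10 (569 unmatched, left out), and the deposited estimated counts were summed by gene and rounded. CPM values were computed here from the deposited counts after TMM scaling. How the authors' quantification divided reads between a gene and an overlapping or near-identical copy is not visible in these values.

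Genes with too few reads were removed by filterByExpr (minimum count 10, minimum total 15), which left 16309. They were tested with edgeR 4.0.16 (quasi-likelihood, R 4.3.3) with a mean for each of the 4 groups (4 residual degrees of freedom), with p-values adjusted by Benjamini-Hochberg at 0.05. SE values were derived from the log2 fold change and its F statistic. DESeq2 1.42.0, other scalings and filters, protein-coding transcripts, a replicate block and leaving out libraries were alternatives. Libraries of a group differed by more than counting noise (chi-square per degree of freedom 24.4 to 120). The named genes were those called in any comparison plus, in a role with fewer than 2 of those, the genes of lowest p in sgMif against sgSCR up to 2. The members, the lists and the alternatives were chosen with earlier results of these data known. Promoters are RefSeq's, from GRCm38.p6. For 1 other pathway gene that was called, values are not reported here.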

Additional observations from a re-analysis of the deposited data

Results flagged for a closer look

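For 6 of the 42 genes both sgMif libraries lay above both sgSCR libraries in CPM while both libraries labelled shMif lay below both shSCR libraries, beside 7.98% of all genes. As 40 of the 42 were above in sgMif and 7 below in shMif, this is not an excess of opposite effects. The difference between both effects on the log2 scale was 1.15 for Mcm6 (adjusted p = 0.0734, edgeR), 1.27 for Pola1 (0.119), 0.97 for Lig1 (0.131), 0.83 for Dnmt1 (0.175), 0.68 for Mcm10 (0.219) and 1.05 for Gmnn (0.239). The difference was tested, and none passed. In the libraries labelled shMif against shSCR alone, the log2 fold changes were -0.19, -0.32, -0.20, -0.26, -0.11 and -0.54 in the same order, with adjusted p from 0.567 to 0.858.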

How the results depend on the processing

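The median log2 fold change of the 42 genes in sgMif against sgSCR stayed within its spread (0.089) under every alternative, and both sgMif libraries lay above the other 6 for 31 to 38 genes under the scalings, transcript sets and left-out libraries where this was counted. The counts of calls did not hold. For sgMif against sgSCR, genes of the set called higher numbered 11 over the 5 libraries above 1000 olfactory receptor CPM, 19 with DESeq2, 0 with length-scaled counts, 1 with a class term, 20 with no filter on low counts and 2 with a replicate block; 1 was lower with DESeq2 and 1 with no filter. All genes called, in that order, were 534, 990, 0, 49, 1494 and 263, against 161. Other pathway genes called were 7, 18, 0, 0 and 18, against 4, up to the fit with no filter. For shMif against shSCR, 2 genes of the set were higher over the 5 libraries, and all genes called were 1162 over the 5 libraries, 182 with DESeq2, 0 with each system alone, 0 with length-scaled counts, 7 with the class term, 662 with no filter and 14 with the replicate block, against 3. For the difference, genes higher were 7 over the 5 libraries, 9 with DESeq2 and 9 with no filter, where 1 was lower. All genes called were 999, 654 and 1306 there, 0 with length-scaled counts, 0 with coding transcripts only and 50 with the replicate block, against 15, and the median was 0.69 with length-scaled counts. For shSCR against sgSCR, genes higher were 4, 3, 0 and 3 over the 5 libraries, with DESeq2, with length-scaled counts and with no filter, and all genes called were 2747, 1948, 77 and 2425, against 655. Genes lower were 3 over the 5 libraries, 1 with DESeq2, 2 with no filter and 1 with the replicate block. The fit over 5 libraries has 1 library each of sgMif, shMif and shSCR, and its 1 residual degree of freedom comes from the sgSCR pair, so its shMif counts set 1 library against 1. Tyms had 0.22 with length-scaled counts in sgMif against sgSCR, and an E2F core was in 45.5% of the genes with only the 250 bases before the start. The cause of these changes was not tested.

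Leaving out 1 library at a time, with a lone library assumed to vary like the other groups, gave 0 to 8 genes higher in sgMif against sgSCR, 0 to 356 genes in all and 0 to 10 other pathway genes. It gave 0 to 2, 0 to 758 in all and a median of -0.08 to 0.15 for shMif against shSCR. For the difference it gave 0 to 5, 0 to 527 in all and a median of 0.52 to 0.70. For shSCR against sgSCR it gave 0 to 2 higher, 0 to 2 lower, 60 to 1848 in all and a median of -0.04 to 0.09. Same-numbered libraries of both arms correlated in their deviations at 0.182 (guide) and 0.263 (hairpin), but the labels give them only a shared number, so the replicate block is given here alone. With 2 libraries a group, small differences were not detectable.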
